A study of Mus musculus with 8 samples.

Results

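The 10 genes described here, Glul, Oat, Slc1a2, Rhbg, Cyp2e1, Cyp1a2, Gulo, Lgr5, Axin2 and Tbx3, are expressed by hepatocytes around the central vein under the control of Wnt signaling. They were chosen by symbol from 41388 Ensembl features that were counted in livers of db/db mice. Of these, 9 were found by symbol in GENCODE M21. The remaining one, Rhbg, was found by its exons, as described with its values. All 10 were among the 12270 genes that passed the filter on low counts (more than 1 CPM, that is counts scaled to the size of the library, in at least 3 libraries).

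Each library came from the liver of 1 db/db mouse, an animal whose mutated leptin receptor leads to obesity and diabetes. The strain comes from the sample titles and the study, whereas the strain label reads C57B/6J. Littermates were randomised at 5 weeks of age and received an adenovirus by tail vein. The virus carried green fluorescent protein in 4 mice (AdGFP) and nicotinamide phosphoribosyltransferase, the rate-limiting enzyme of NAD salvage, in 4 mice (AdNAMPT). All mice were 10 weeks old when sampled, and the series text gives 4 to 5 weeks of overexpression. The paper gives shorter times after adenovirus delivery, both for adipose tissue of its db/db mice and in its methods. No promoter that would restrict the adenoviral transgene to hepatocytes was stated for this adenovirus. Whole liver was used, so that fewer pericentral hepatocytes and less RNA per pericentral hepatocyte cannot be told apart.

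As background, blood enters the liver lobule at the portal triad and leaves through the central vein, and hepatocytes along this path carry out different work. Endothelial cells of the central vein secrete Wnt2, Wnt9b and the R-spondin Rspo3, which stabilise beta-catenin in the neighbouring hepatocytes. Beta-catenin then joins TCF/LEF factors on DNA, and this program includes glutamine synthesis, xenobiotic metabolism by cytochrome P450 enzymes and feedback regulators of the pathway itself. Hepatocytes around the portal vein instead lead urea synthesis and gluconeogenesis.

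RefSeq promoter windows (GRCm38.p6, from 250 bases before to 50 bases after the annotated start) were found for 6 of the 10 genes: Glul, Oat, Slc1a2, Cyp2e1, Cyp1a2 and Axin2. The letters CTTTG followed by AA, AT, TA or TT, which are forms of the sequence that TCF/LEF factors recognise, were searched on both strands. At least 1 of these heptamers was present in 3 of these 6 windows and in 16.9% of all 32851 windows. The stretches that hold a match are shown because they are the places where the letters read by beta-catenin's partner occur in this set. Capitals mark the match, every sequence reads 5′ to 3′ on the strand of the gene, and bases that GENCODE M21 places in an exon were left out.
Slc1a2, chr2:102706188-102706355, plus strand: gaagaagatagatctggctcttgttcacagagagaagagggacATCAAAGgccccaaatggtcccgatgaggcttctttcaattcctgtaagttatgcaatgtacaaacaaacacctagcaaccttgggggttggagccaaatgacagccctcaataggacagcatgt
Cyp2e1, chr7:140763569-140763738, plus strand: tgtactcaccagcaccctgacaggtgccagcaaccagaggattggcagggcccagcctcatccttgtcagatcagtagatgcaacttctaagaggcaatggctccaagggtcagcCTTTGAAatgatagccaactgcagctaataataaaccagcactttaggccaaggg
Cyp1a2, chr9:57683704-57683905, minus strand: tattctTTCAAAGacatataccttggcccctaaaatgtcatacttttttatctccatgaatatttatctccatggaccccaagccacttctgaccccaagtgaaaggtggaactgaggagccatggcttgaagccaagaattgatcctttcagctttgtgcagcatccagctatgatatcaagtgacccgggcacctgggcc

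In Cyp2e1 the letters CTTTGAA read forward from base -135 to -129 relative to the start. In Cyp1a2 the same letters lay on the opposite strand from -244 to -238, and in Slc1a2 CTTTGAT lay on the opposite strand from -207 to -201. The Slc1a2 and Cyp2e1 starts used by RefSeq lie inside the deposited genes, which begin farther upstream. Of the 250 bases before the start, GENCODE M21 places 29 in an exon for Slc1a2, 80 for Cyp2e1 and 48 for Cyp1a2. Glul, Oat and Axin2 held none of the 4 heptamers in this window. The letters TATAAA, the core of a TATA box, were found in Cyp2e1 from -31 and in Cyp1a2 from -29. Both lay outside the stretches shown, in bases that GENCODE M21 places in an exon. The same letters were present in 13.6% of all windows. The 3 windows with a match had a GC content of 45.7% in Slc1a2 and 49.7% in both P450 genes, against 64.3% in Glul, 61.7% in Oat, 70% in Axin2 and a median of 52.7% over all windows. A match describes these letters only and does not show binding.

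Libraries held 12006713 to 19879814 counts, so that the floor of 3 counts corresponded to between 0.151 and 0.250 CPM. Features annotated as ribosomal RNA took 1.77% to 2.63% of counts in AdGFP, highest in replicate 2, and 0.863% to 1.62% in AdNAMPT. Nampt, the transferred gene, overlapped between groups, at 133 ± 21.7 CPM and 154 ± 25.3 CPM (mean ± SD, 4 mice each), and its estimate was 0.08 on the log2 scale (SE 0.15, limma adjusted p 0.915). Nampt therefore did not mark the groups apart, vector and endogenous transcripts were not separated, and AdNAMPT below means the libraries labelled AdNAMPT. The library of AdNAMPT replicate 1 stood apart in a list of 8 female-biased liver genes, whose mean log2 CPM was 3.30 there and between 6.21 and 6.69 in every other library. Its mean over the 7 of 8 male-biased genes that passed the filter was 7.23, against 4.89 to 5.49 elsewhere. The study states that males were used in its overexpression work, db/db mice included, and the cause of this difference between libraries was not tested. By limma 0 genes of these lists passed, and 2 female-biased genes had an unadjusted p below 0.05, among them Cyp2b13 with a log2 fold change of -1.43 (SE 0.62). This library also received the lowest sample weight in the limma fit, 0.440, against 0.811 to 1.41 for the others. Members' results are therefore also given without AdNAMPT replicate 1, and without AdGFP replicate 2. Hepatocyte markers were high in all libraries, with albumin (Alb) at a mean of 89983 CPM in AdGFP and 88819 CPM in AdNAMPT (log2 fold change -0.11, SE 0.13), and 6 of 7 kidney or pancreas markers did not exceed 3 counts in any library.

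Of the 10 genes, 0 passed the threshold in the comparison of AdNAMPT with AdGFP, which asks whether liver NAMPT delivery altered the pericentral program. Over all tested genes, limma with TMM scaling called 34 at an adjusted p of at most 0.05, or 0.277%, of which 2 were higher (0.0163%) and 32 lower (0.261%) in AdNAMPT. Estimates were below 0 for 8 of the 10 pericentral genes and for 49.6% of all tested genes. Their median log2 fold change was -0.20, and that of all tested genes was 0.0015. Only Oat had an unadjusted p below 0.05, and 1 of 10 is close to the 9.69% of all tested genes that did. No member had groups that did not overlap on the normalised log2 scale, a separation seen in 4.79% of tested genes. By edgeR's quasi-likelihood test and by DESeq2, 0 of the 10 genes passed an adjusted p of 0.05 and 1 had an unadjusted p below 0.05 in each. Without AdNAMPT replicate 1 the limma calls stayed at 0, with 3 genes at an unadjusted p below 0.05, as were 10.5% of all genes tested in that fit, and a median of -0.25. Leaving out AdGFP replicate 2 gave 0 calls, 4 genes at an unadjusted p below 0.05, against 9.84% of all genes tested there, and a median of -0.29. The median moved either way with other mice left out. It was -0.15, -0.25 and -0.16 without AdGFP replicates 1, 3 and 4. Without AdNAMPT replicates 2, 3 and 4 it was -0.33, -0.13 and -0.11.

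**Figure D1:**
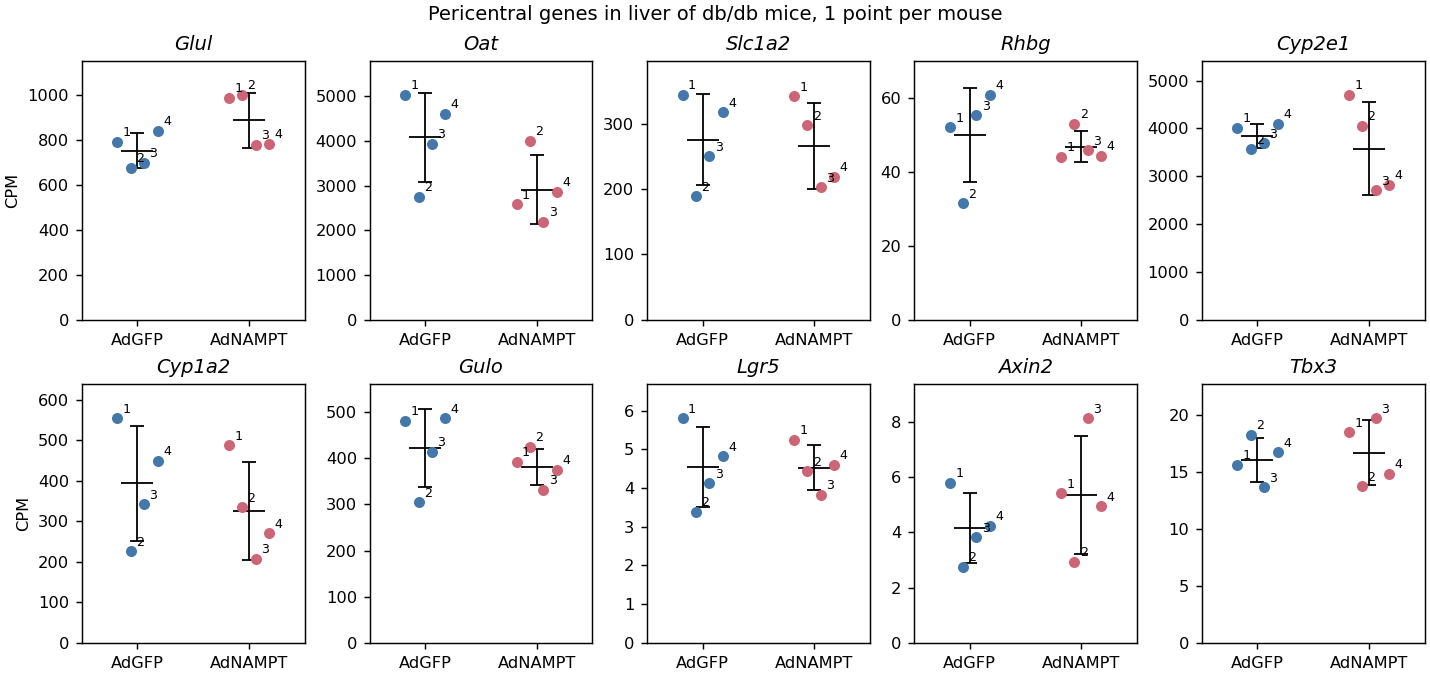
CPM of each pericentral gene (vertical axes, starting at 0) in 4 AdGFP and 4 AdNAMPT mice, with replicate numbers beside the points, a horizontal bar at the group mean and whiskers of 1 SD. The groups overlap for every gene, and AdGFP replicate 2 is the lowest of its group in 9 of the 10 panels.

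The first group of genes handles ammonia and glutamine. Glul (ENSMUSG00000026473, chromosome 1, 153899944 to 153909723, plus strand, GRCm38) encodes glutamine synthetase, which captures ammonia that escaped urea synthesis and is confined to the innermost hepatocytes. Glul measured 793, 677, 698 and 841 CPM in the 4 AdGFP mice, in replicate order as for all genes below, and 987, 1001, 778 and 784 CPM in the 4 AdNAMPT mice. The AdNAMPT mice fell into a higher and a lower pair, and the lower pair lay within the AdGFP range. Group means were 752 ± 77.8 CPM for AdGFP and 888 ± 123 CPM for AdNAMPT (± SD, n = 4 mice each), and the estimated log2 fold change was 0.13 (SE 0.11, 95% confidence interval -0.12 to 0.37, limma adjusted p 0.758). Exons of Glul overlap Teddm2 on the opposite strand and Mir8114 on the same strand, and whether the counting used strand was not stated.

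Oat (ENSMUSG00000030934, chromosome 7, 132557475 to 132576398, minus strand) encodes ornithine aminotransferase, a mitochondrial enzyme that turns ornithine toward glutamate and thereby supplies Glul. Levels of Oat were 5033, 2754, 3944 and 4613 CPM in AdGFP and 2586, 4005, 2195 and 2870.35 CPM in AdNAMPT. AdGFP replicate 2 lay among the AdNAMPT mice and AdNAMPT replicate 2 lay among the AdGFP mice, so the groups overlapped, although all 4 AdNAMPT values were under the AdGFP mean. The AdGFP mean was 4086 ± 995 CPM and the AdNAMPT mean 2914 ± 778 CPM (± SD, n = 4). The estimate for Oat, a log2 fold change of -0.56 (SE 0.21), was the farthest from 0 among the 10 genes and corresponded to 0.679 times the AdGFP level, with a 95% confidence interval of 0.493 to 0.935. Its unadjusted p was 0.0219 and its limma adjusted p 0.453, so Oat did not pass. Leaving out AdNAMPT replicate 2 moved the estimate to -0.86 and leaving out AdNAMPT replicate 3 to -0.31, with limma adjusted p of 0.172 and 0.544.

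Slc1a2 (ENSMUSG00000005089, chromosome 2, 102658659 to 102790784, plus strand) encodes a glutamate transporter of the plasma membrane that brings in the substrate of Glul. It measured 344, 189, 250.1 and 318 CPM in AdGFP and 342, 298, 203 and 219 CPM in AdNAMPT. Each group contained mice near the top and near the bottom of the whole range. The means, 275 ± 69.7 and 265 ± 65.9 CPM (± SD, n = 4), differed by far less than the spread within a group, and limma estimated -0.22 on the log2 scale (SE 0.19, 95% confidence interval -0.63 to 0.19, adjusted p 0.746). Slc1a2 exons overlap Gm13872 on the opposite strand.

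Rhbg encodes an ammonium transporter of the hepatocyte membrane. The files carry no feature with its M21 identifier, but feature ENSMUSG00000001417 (chromosome 3, 88242874 to 88287210, minus strand) contains 100% of the exonic bases of Rhbg, which make up 85.3% of the exonic bases of that feature. Its values, reported here as Rhbg, may include reads of Tsacc, which overlaps it on the same strand. They were 52.1, 31.6, 55.4 and 60.9 CPM in AdGFP and 44.1, 53.1, 45.9 and 44.4 CPM in AdNAMPT. All AdNAMPT mice lay between AdGFP replicate 2 and the highest AdGFP mouse. The means were 50.02 ± 12.8 and 46.9 ± 4.19 CPM (± SD, n = 4), with a log2 fold change of -0.19 (SE 0.16, 95% confidence interval -0.53 to 0.16, limma adjusted p 0.745).

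Among the P450 and ascorbate enzymes, estimates for all 3 genes were below 0 and 0 passed. Cyp2e1 (ENSMUSG00000025479, chromosome 7, 140763739 to 140774975, plus strand) oxidises ethanol, acetone and small toxicants such as paracetamol. It measured 4018, 3564, 3693 and 4101 CPM in AdGFP and 4703, 4058, 2708 and 2823 CPM in AdNAMPT. The AdGFP mice were close together, with an SD of 0.080 on the log2 scale, whereas the AdNAMPT mice spread over an SD of 0.39, as 1 of them was above and 2 were below every AdGFP mouse. Mean levels were 3844 ± 256 and 3573 ± 969.9 CPM (± SD, n = 4), with a log2 fold change of -0.27 (SE 0.15, 95% confidence interval -0.60 to 0.06, limma adjusted p 0.611). Without AdNAMPT replicate 1, the highest library, it was -0.41 with a limma adjusted p of 0.349.

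Cyp1a2 (ENSMUSG00000032310, chromosome 9, 57676937 to 57683655, minus strand) metabolises caffeine and aromatic amines and answers to the aryl hydrocarbon receptor as well as to beta-catenin. Its levels were 556, 227, 342 and 450.5 CPM in AdGFP and 488, 336, 208 and 272 CPM in AdNAMPT. The highest mouse was at 2.67 times the lowest in CPM and at 2.90 times on the TMM-scaled level, and the spread of TMM-scaled log2 levels within groups exceeded that of 94.4% of tested genes. For Axin2, described below, the same ratios were 2.96 and 2.61. The means of 394 ± 141 and 326 ± 119.9 CPM (± SD, n = 4) gave a log2 fold change of -0.51 with a wide 95% confidence interval, -1.07 to 0.06 (SE 0.26, limma adjusted p 0.573).

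Gulo (ENSMUSG00000034450, chromosome 14, 65986787 to 66009210, minus strand) encodes the last enzyme of ascorbate synthesis, which mice keep and humans have lost. AdGFP replicates 1 to 4 were at 481, 305, 414 and 487 CPM, and AdNAMPT replicates at 392, 424, 332 and 375 CPM. In CPM the AdNAMPT mice again lay inside the AdGFP range, whose lower end was replicate 2. On the TMM-scaled log2 level AdNAMPT replicate 3, at 8.33, was below AdGFP replicate 2, at 8.37. The groups averaged 422 ± 84.7 and 381 ± 38.4 CPM (± SD, n = 4), with a log2 fold change of -0.26 (SE 0.14, 95% confidence interval -0.56 to 0.04, limma adjusted p 0.586).

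The last group comprises regulators in the pathway itself, and these had far fewer reads than the enzymes. Lgr5 (ENSMUSG00000020140, chromosome 10, 115450311 to 115587780, minus strand) encodes an R-spondin receptor that raises Wnt receptor density. It had 48 to 85 reads per library, at 5.81, 3.39, 4.12 and 4.82 CPM in AdGFP and 5.25, 4.44, 3.82 and 4.60 CPM in AdNAMPT. The means were nearly equal, at 4.54 ± 1.03 and 4.53 ± 0.585 CPM (± SD, n = 4). The TMM-scaled log2 fold change was -0.17 (SE 0.17, 95% confidence interval -0.55 to 0.21, limma adjusted p 0.795).

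Axin2 (ENSMUSG00000000142, chromosome 11, 108920349 to 108950783, plus strand), a scaffold of the complex that degrades beta-catenin and a feedback target of the pathway, was at 5.81, 2.75, 3.82 and 4.24 CPM in AdGFP. The AdNAMPT mice were at 5.41, 2.94, 8.15 and 4.95 CPM. Replicate 3, with 162 reads, was the highest of all mice, and replicate 2 was close to the lowest. Means were 4.16 ± 1.27 and 5.36 ± 2.15 CPM (± SD, n = 4). Limma estimated a log2 fold change of 0.12 (SE 0.30, adjusted p 0.933), which became -0.33 without AdNAMPT replicate 3 and -0.09 without AdNAMPT replicate 4. The interval, -0.54 to 0.78, includes sizeable differences in either direction. Exons of Axin2 overlap Gm11670 on the opposite strand.

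Tbx3 (ENSMUSG00000018604, chromosome 5, 119670669 to 119684724, plus strand) encodes a T-box repressor that is a beta-catenin target in hepatocytes. Tbx3 measured 15.7, 18.3, 13.7 and 16.7 CPM in AdGFP and 18.5, 13.8, 19.8 and 14.9 CPM in AdNAMPT. The groups covered almost the same range. Means were 16.1 ± 1.94 and 16.7 ± 2.86 CPM (± SD, n = 4). The estimated log2 fold change was -0.06 (SE 0.13, 95% confidence interval -0.34 to 0.23, limma adjusted p 0.925) with TMM scaling and 0.02 with scaling by library size alone, so that no direction can be given. Exons of Tbx3 overlap Tbx3os1 on the opposite strand.

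**Figure D2:**
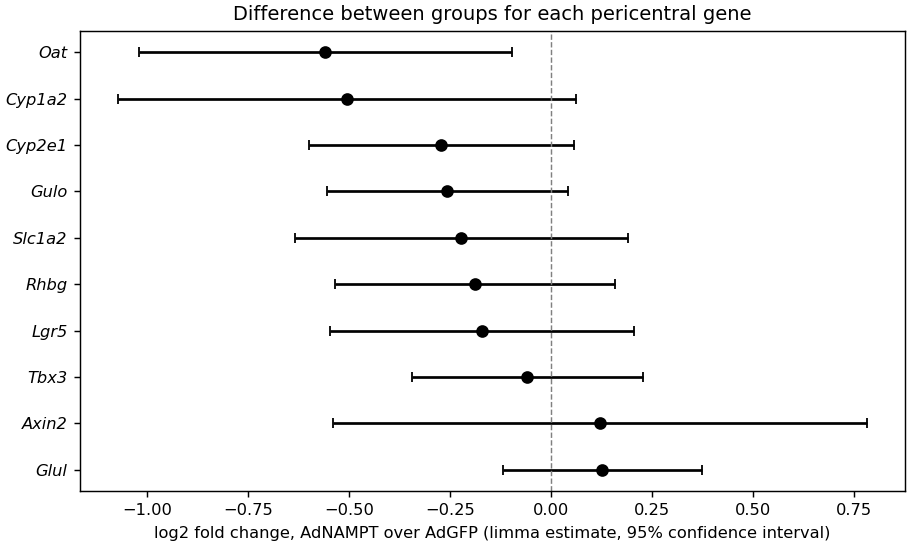
Estimated log2 fold change of AdNAMPT over AdGFP (horizontal axis) for each pericentral gene, from the limma fit over 12270 genes, with 95% confidence intervals (n = 4 mice per group). Only the interval of Oat, -1.02 to -0.10, leaves out 0, before adjustment for the number of genes tested.

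Levels of different genes were compared per exonic length, in RPKM. Averaged over all 8 mice, Cyp2e1 was first at 2030 RPKM, followed by Oat at 1624 RPKM. Their ranges overlapped, and Cyp2e1 was the higher in 7 of 8 mice. Glul followed at 247 RPKM, Cyp1a2 at 190.2 RPKM and Gulo at 177 RPKM, with overlap between each of these and the next. Rhbg at 21.3 RPKM and Slc1a2 at 20.6 RPKM did not differ beyond their spread either. Their annotated exonic lengths were 2271 and 13133 bases, and in CPM Slc1a2 was the higher in every mouse. Tbx3 at 3.06 RPKM overlapped neither neighbour. Axin2 at 0.864 RPKM and Lgr5 at 0.441 RPKM had overlapping ranges, although Axin2 was the higher in 8 of 8 mice. This order rests on annotated exonic lengths of 5506 bases for Axin2 and 10264 for Lgr5. In reads, Lgr5 equalled or exceeded Axin2 in every AdGFP mouse and AdNAMPT replicate 2, and was lower in AdNAMPT replicates 1, 3 and 4. The lowest Cyp1a2 value, 109.9 RPKM, was still far above the highest Tbx3 value, 3.68 RPKM, so that these 5 enzymes stood above the 3 regulators in every mouse.

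**Figure D3:**
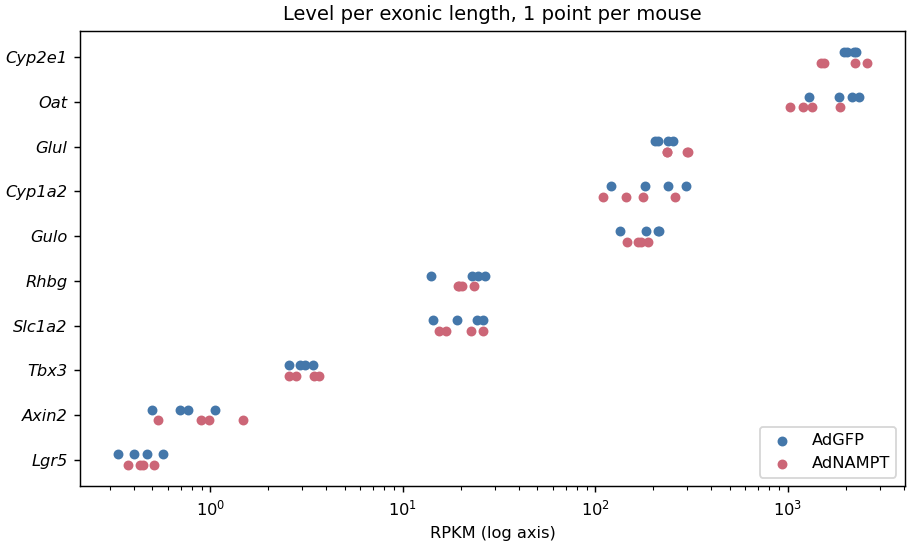
RPKM of each pericentral gene (horizontal axis, log scale) in 4 AdGFP mice (blue) and 4 AdNAMPT mice (red), 1 point per mouse. Cyp2e1 and Oat lie at 1018.7 RPKM or more in every mouse, while Axin2 and Lgr5 lie at 1.48 RPKM or less.

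Several of the genes moved together between mice. Pearson correlations of log2 CPM were above 0 in 32 of the 45 gene pairs, with a median of 0.52, and after removal of each group's mean they were above 0 in 34 pairs with a median of 0.53. Over all 75270315 pairs of tested genes the median was -0.0006, with 49.95% above 0. The 38 other pericentral genes described below had a median of 0.34 among themselves and 33 periportal genes a median of 0.22, and these values are a description without a test. In CPM, AdGFP replicate 2 had the lowest AdGFP value for 9 of the 10 genes and the highest for Tbx3, whereas on the TMM-scaled log2 level it was the lowest for 7, with AdGFP replicate 3 lowest for Glul, Cyp2e1 and Tbx3. On that level AdNAMPT replicate 3 had the lowest AdNAMPT value for 7 genes and the highest for Axin2 and Tbx3. The mean deviation of the 10 genes from their average over all mice was -0.26 in AdGFP replicate 2 and -0.24 in AdNAMPT replicate 3 on the log2 scale. It was -0.12 and -0.26 for the other pericentral genes and -0.064 and -0.15 for the periportal genes, so that these libraries were on the same side of 0 in all 3 lists. AdGFP replicate 2 also had the highest share of ribosomal RNA, 2.63%, and a sample weight below 1, and their part in this pattern was not tested.

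Of the 45 pairs, 4 passed an adjusted p of 0.05 by an exact permutation test of Pearson's r over all 40320 pairings of the 8 mice (two-sided, Benjamini-Hochberg over 45 pairs), and 0 passed by Spearman's rho. The strongest pair was Slc1a2 and Cyp1a2, with r = 0.968 and rho = 0.952 (n = 8, exact permutation p 0.0002 and 0.0011, adjusted 0.0112 and 0.0513). For this pair r was 0.936 without the 2 mice farthest from the median of Slc1a2, 0.977 within groups and at least 0.958 without any 1 mouse. Lgr5, which has few reads, followed Cyp1a2 with r = 0.924 and rho = 0.881 (n = 8, exact permutation p 0.0016 and 0.0072, adjusted 0.0242 and 0.0652), and r was 0.837 without the 2 farthest mice. Lgr5 and Slc1a2 had r = 0.884 and rho = 0.881 (n = 8, exact permutation p 0.0027 and 0.0072, adjusted 0.0299 and 0.0652), with r = 0.727 without the 2 farthest mice. Oat and Gulo had r = 0.923 and rho = 0.881 (n = 8, exact permutation p 0.0016 and 0.0072, adjusted 0.0242 and 0.0652), with r = 0.846 without the 2 farthest mice. Without AdGFP replicate 2, r for these 4 pairs was 0.966, 0.919, 0.852 and 0.967 in the order given.

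For Glul the values depended on whether group means were removed. Its r with Oat was 0.20 over all mice and 0.69 within groups, with Slc1a2 0.69 and 0.89, and with Cyp2e1 0.55 and 0.89. For Axin2, a transcriptional target of the pathway, r rested on single mice. Its r with Cyp1a2 was 0.02 over all mice but ranged from -0.23 without AdGFP replicate 1 to 0.68 without AdNAMPT replicate 3, and its r with Lgr5 was 0.23 and ranged from -0.041 without AdGFP replicate 2 to 0.84 without AdNAMPT replicate 3. Tbx3 had a negative r over all 8 mice with each of the enzymes and transporters, down to -0.55 with Rhbg, and its r with Axin2 was 0.31, with 0.028 when AdNAMPT replicate 2 was left out and 0.80 when AdGFP replicate 2 was. These pairs of Glul, Axin2 and Tbx3 did not pass the exact permutation test over all mice. They are correlations across mice of the same tissue, in which all genes of a library share its depth and scaling.

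**Figure D4:**
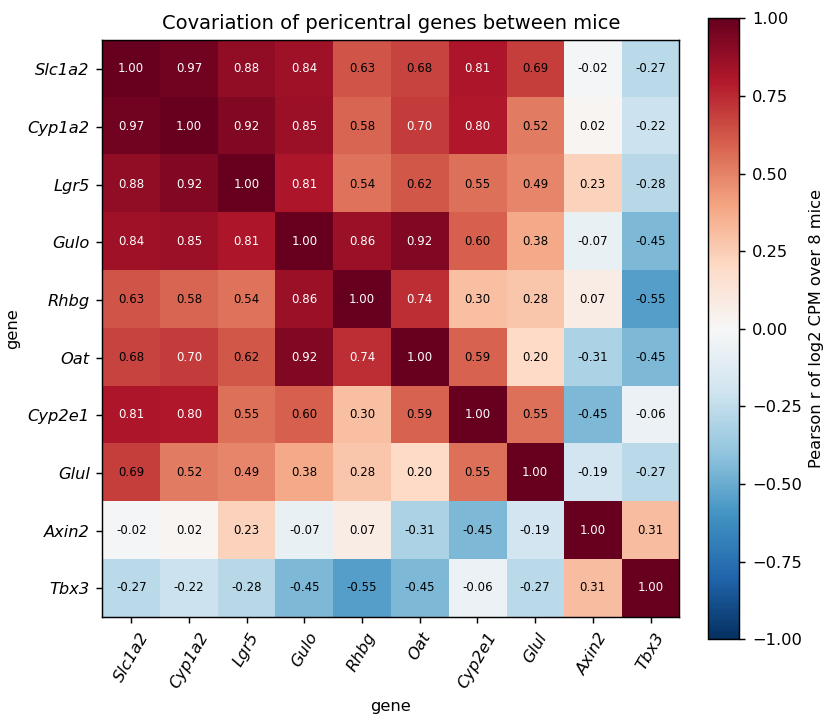
Pearson r of log2 CPM over 8 mice (color and printed value) for each pair of pericentral genes, both groups pooled. Slc1a2, Cyp1a2, Lgr5 and Gulo form a block with r of 0.81 to 0.97, while rows of Axin2 and Tbx3 are near or below 0 for most partners; values of Axin2 changed with single mice left out.

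The Wnt pathway upstream of these genes was examined with a list of 61 ligands, receptors, transducers, nuclear factors, inhibitors and common targets, of which 51 were tested. By limma, edgeR's quasi-likelihood test and DESeq2 0 passed, 26 limma estimates were above and 25 below 0, and the median log2 fold change was 0.01. An unadjusted p below 0.05 was reached by 8 of the 51, 3 higher and 5 lower, against 4.65% and 5.04% of all tested genes. The central vein ligands were rare transcripts in whole liver: Wnt2 was at 3.99 ± 1.47 and 4.54 ± 1.39 CPM in the AdGFP and AdNAMPT groups, and Wnt9b at 1.14 ± 0.714 and 1.97 ± 1.38 CPM (± SD, n = 4). Their log2 fold changes were -0.08 (SE 0.26) and 0.32 (SE 0.53). Rspo3, the R-spondin that sustains pericentral identity, was at 5.18 ± 0.753 and 4.54 ± 0.815 CPM, with a log2 fold change of -0.37 (SE 0.15, limma adjusted p 0.492). Summed over 9 central vein endothelial markers, which include these 3 ligands, levels were 46.6 to 61.9 CPM in AdGFP and 51.6 to 59.5 CPM in AdNAMPT.

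Among receptors, Fzd1, a Wnt receptor, had the smallest p of the list, at 10.1 ± 0.235 CPM in AdGFP and 14.3 ± 2.43 CPM in AdNAMPT without overlap, and a log2 fold change of 0.39 (SE 0.11, limma adjusted p 0.357). Lgr4, the R-spondin receptor that hepatocytes carry more widely than Lgr5, was at 73.7 and 77.8 CPM, with a log2 fold change of -0.07. Znrf3 and Rnf43 encode ubiquitin ligases that remove Wnt receptors and are countered by R-spondins. The groups of Znrf3 did not overlap, at 7.87 ± 0.669 and 6.70 ± 0.125 CPM, with a log2 fold change of -0.32 (SE 0.11, limma adjusted p 0.425), while Rnf43 was at 20.2 and 23.1 CPM with 0.10. Tle3, a corepressor of TCF factors, was at 12.6 ± 2.45 and 18.3 ± 1.98 CPM, with a log2 fold change of 0.42 (SE 0.13, limma adjusted p 0.392). Ctnnb1, which encodes beta-catenin itself, was at 244 and 240.0 CPM with a log2 fold change of -0.13 (SE 0.08). Its DNA-binding partner Tcf7l2 was at 7.40 and 7.11 CPM with -0.11 (SE 0.12). These differences did not pass the threshold.

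A list of 38 other pericentral genes, mainly enzymes and transporters, was set beside the 10. By limma and edgeR's quasi-likelihood test 0 passed, 31 limma estimates were below 0, and the median log2 fold change was -0.23, close to the -0.20 of the 10 genes. An unadjusted p below 0.05 in the lower direction was reached by 14 of 38, against 5.04% of all tested genes, and 7 had lower groups without overlap, against 2.7%. The smallest p belonged to Cyp2c54 and Cyp2c50, epoxygenases of the Cyp2c family whose close paralogs may share reads. Cyp2c54 was at 659.9 ± 139.6 and 447 ± 82.6 CPM, with a log2 fold change of -0.69 (SE 0.17, limma adjusted p 0.225). Cyp2c50 was at 1459 ± 238 and 1127 ± 214 CPM, with -0.52 (SE 0.15, limma adjusted p 0.331). DESeq2 called Cyp2c54 alone in this list, with an adjusted p of 0.033.

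Genes of the opposite, periportal end were examined for comparison. Of 33, 0 passed by limma or edgeR's quasi-likelihood test, 27 had estimates below 0, and the median was -0.19, again near that of the pericentral genes. An unadjusted p below 0.05 was reached by 13 lower genes and 1 higher gene, against 5.04% and 4.65% of all tested genes, and 4 were lower without overlap, against 2.7%. Hal, which degrades histidine, was at 847 ± 181 and 590.3 ± 91.8 CPM, with a log2 fold change of -0.60 (SE 0.15, limma adjusted p 0.228). Slc38a2, an amino acid transporter, was at 103 ± 21.6 and 75.2 ± 11.02 CPM, with -0.58 (SE 0.14, limma adjusted p 0.211). By DESeq2 both passed, with adjusted p of 0.0244 and 0.0487. Gls2, the glutaminase that feeds ammonia into the urea cycle, had an estimate of -0.28 (SE 0.11), Cps1, the first enzyme of that cycle, -0.27 (SE 0.14), and the periportal P450 Cyp2f2 -0.18 (SE 0.08). Estimates on both sides of the lobule thus lay on the same side of 0 in most genes, and no difference between the lists was tested.

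**Figure D5:**
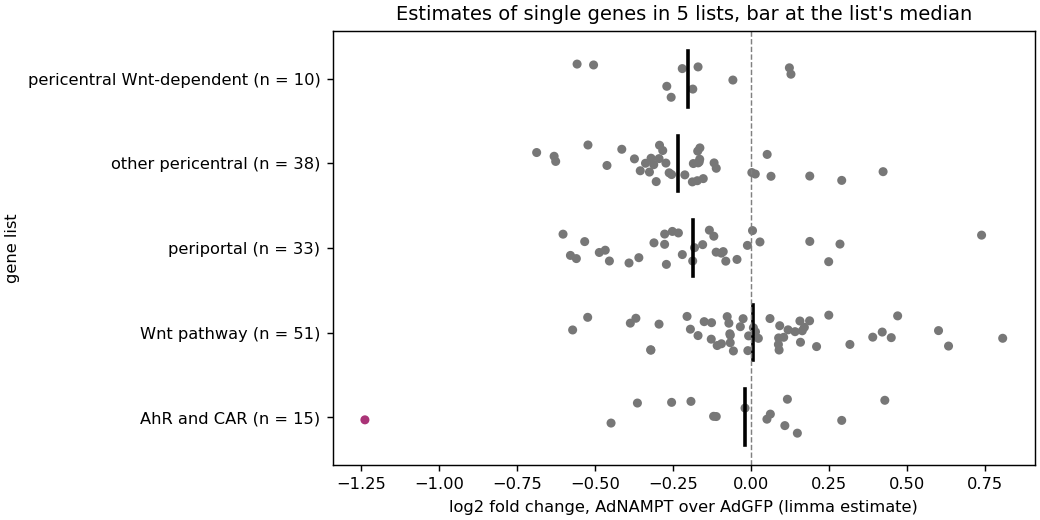
Estimated log2 fold change of AdNAMPT over AdGFP (horizontal axis) for single genes, 1 point each, in 5 gene lists, with a black bar at each list's median. The 10 pericentral genes, the other pericentral genes and the periportal genes have medians of -0.20, -0.23 and -0.19, the Wnt pathway is centred at 0.01, and the colored point among AhR and CAR genes is Cyp2b10, the gene in these lists that passed by limma.

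Cyp1a2 and Cyp2e1 also respond to factors other than beta-catenin. In a list of 15 tested genes of the aryl hydrocarbon receptor (AhR) and the constitutive androstane receptor (CAR), 1 passed by limma, as by edgeR and DESeq2. It was Cyp2b10, the classical CAR target, which fell in all 4 AdNAMPT mice, to 40.9 ± 5.82 CPM against 88.6 ± 13.6 CPM (± SD, n = 4), a log2 fold change of -1.24 (SE 0.13, limma adjusted p 0.00093). Cyp1a1, the AhR target next to Cyp1a2 in the genome, had 18 to 27 reads per library and a log2 fold change of -0.45 (SE 0.25, limma adjusted p 0.614). It was the 1 of 5 tested AhR targets with an estimate below 0. Of the other 4, named after their values were seen, Tiparp was at 10.02 ± 1.27 and 13.6 ± 3.91 CPM with 0.43 (SE 0.17, unadjusted p 0.0266, limma adjusted p 0.476), and Ugt1a6a, Cyp1b1 and Nqo1 had estimates of 0.12, 0.11 and 0.05. Ahr itself was at -0.11 (SE 0.14), and Nr1i3, which encodes CAR and is also in the pericentral list, -0.26 (SE 0.14). The 5 tested CAR targets went both ways, with 3 estimates below 0 and 2 above. Besides Cyp2b10, and also named after their values were seen, Cyp2c55 was at -0.37 (SE 0.29) and Gsta2 at -0.19 (SE 0.099). Gstm3 was at 0.29 (SE 0.24) and Abcc3 at 0.15 (SE 0.087). Only Cyp2b10 among these targets had an unadjusted limma p below 0.05, and CAR activity was not tested. Of 6 genes that act on or with Cyp2e1, 0 passed by limma, edgeR or DESeq2, and 3 had an unadjusted limma p below 0.05. Cyb5a, an electron donor to P450 enzymes, was at 1679.6 ± 166 and 1487 ± 36.5 CPM without overlap, with -0.27 (SE 0.08, limma adjusted p 0.382).

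Markers of other liver cells were read alongside, and 0 passed by limma or edgeR in any of these lists. DESeq2 called 1, the Kupffer cell gene Vsig4 (adjusted p 0.0393). Kupffer cell markers had estimates below 0 in 8 of 8 genes, with 3 at an unadjusted p below 0.05, and sums of 267 to 339 CPM in AdGFP and 200.3 to 328 CPM in AdNAMPT. Of these, Vsig4 was estimated at -0.51 (SE 0.12) and Timd4 at -0.83 (SE 0.23) on the log2 scale. Sinusoidal endothelial markers summed to 292 to 340 CPM in AdGFP and 331 to 371 CPM in AdNAMPT, with Stab1 at 0.22 (SE 0.09), the 1 gene of 8 at an unadjusted p below 0.05, and Lyve1 at 0.34 (SE 0.24). Stellate markers summed to 382 to 435 CPM and 401 to 451 CPM, with Col1a1 at 0.64 (SE 0.24) and Ecm1 at -0.30 (SE 0.13), the 2 of 8 at an unadjusted p below 0.05. Cholangiocyte markers summed to 26.7 to 42.2 CPM and 29.6 to 44.4 CPM, with Sox9 at 0.81 (SE 0.33) and Krt19 at -0.37 (SE 0.37). Lymphocyte and neutrophil markers summed to 4.42 to 6.72 CPM and 3.91 to 9.20 CPM, with S100a9 at 0.56 (SE 0.35), S100a8 at 0.39 (SE 0.28) and Ly6g at or under 3 counts in every library. The hepatocyte markers Serpina1a and Ttr had -0.29 (SE 0.16) and 0.13 (SE 0.12). The part of these shifts in the values of the pericentral genes was not tested.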

How the data were processed

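Liver RNA of 8 db/db mice was sequenced, and samples were grouped by their titles. The authors aligned single reads to GRCm38 with STAR (2.4.0b in the submitters' processing notes) and counted reads per Ensembl gene with featureCounts 1.4.5. Per the labels ribosomal RNA was depleted, whereas poly-A selection is described in the methods. The deposited counts are unnormalised reads for each gene. The deposited CPM are counts scaled to the library total by the authors, and the deposited RPKM are those CPM per kilobase of exon. Counts were tested, CPM described levels and RPKM compared genes. Symbols came from GENCODE M21 (40254 of 41388 features matched).

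Following the study's methods, 355 ribosomal RNA features and genes not above 1 CPM in at least 3 libraries (2 where a library was left out) were removed, and 12270 genes were fitted with TMM factors and limma's voomWithQualityWeights (limma 3.58.1, edgeR 4.0.16, R 4.3.3), group being the only term. Benjamini-Hochberg adjusted p of at most 0.05 over all genes counted as passing. Correlations used log2 CPM with TMM factors and a prior count of 2 (pandas 2.3.3, scipy 1.17.1, numpy 2.4.6, Python 3.11.15, matplotlib 3.10.9). Fits were tested on simulated data. Alternatives were edgeR's quasi-likelihood test, DESeq2 1.42.0, voom without sample weights, other scalings and filters, a GC correction, a replicate block and each library left out.

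The 10 genes, all gene lists (Wnt pathway, other pericentral, periportal, AhR and CAR, partners of Cyp2e1, cell type markers, sex-biased genes) and alternatives were chosen with earlier results of these data known. Named genes are the 10, a set of reference genes and, from each list, those passing or else the 2 with the smallest p. Some genes that this rule names are not reported here. Some lists share genes. Floors of 3 counts cover counting error only. Each numbered title was taken as 1 mouse, and p-values measure the spread between these samples.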

Additional observations from a re-analysis of the deposited data

How the results depend on the processing

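The count of pericentral genes passing an adjusted p of 0.05 was 0 in each of the 18 alternatives, as it was for the Wnt pathway list, and the count among AhR and CAR genes was 1 in each. DESeq2 raised the count to 1 among other pericentral genes and to 2 among periportal genes, from 0 in each, and to 75 over all genes, from 34, while the other alternatives gave 28 to 43 over all genes; the cause was not tested. The Nampt estimate, 0.08, ranged from -0.079 to 0.27 when 1 mouse was left out, and was -0.058 without AdGFP replicate 1, -0.079 without AdNAMPT replicate 3 and -0.048 without AdNAMPT replicate 4. Of the members, 3 changed sign in an alternative: Glul to -0.020 without AdNAMPT replicate 2, Axin2 to -0.33 and -0.087 without AdNAMPT replicates 3 and 4, and Tbx3 to 0.077 without AdNAMPT replicate 2 and to 0.023 with library size alone. With 1 mouse left out, Glul ranged from -0.020 to 0.25, Axin2 from -0.33 to 0.56 and Tbx3 from -0.20 to 0.077. Over all alternatives estimates ranged from -0.86 to -0.31 for Oat, -0.73 to -0.29 for Cyp1a2, -0.49 to -0.08 for Cyp2e1, -0.43 to -0.038 for Slc1a2, -0.31 to -0.098 for Rhbg, -0.39 to -0.15 for Gulo and -0.24 to -0.049 for Lgr5. The values nearest to 0 of the last 4 came without AdNAMPT replicate 3 for Slc1a2 and Gulo, AdGFP replicate 4 for Rhbg and AdGFP replicate 1 for Lgr5. The lowest adjusted p of any member was 0.172. Members at an unadjusted p below 0.05 numbered 5 without AdNAMPT replicate 2, against 10.4% of all genes tested there, and 0 without AdGFP replicate 1, AdGFP replicate 4 or AdNAMPT replicate 4. Scaling by library size alone moved the median of all genes from 0.0015 to 0.09, left 28.2% of all estimates and 7 of 10 members below 0, and turned the split at an unadjusted p below 0.05 from 619 lower of 1189 to 214 lower of 1609.

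With the replicate number as a block, 0 members and 41 genes passed, and 43 with a GC correction as well. Correlations of same-numbered mice across groups were 0.225, -0.045, 0.213 and 0.0052. Not every mouse correlated best with its own number. The main fit did not pair mice by number, and whether same-numbered mice shared a batch was not tested. The correlated pairs of members numbered 4 over all mice and 7 after centring each group. Permutation over all mice is not exact once group means are removed, so these counts are not directly comparable. All 10 members passed the filter, so no unfiltered value was needed. Lgr5 and Axin2 rested on 39 to 162 reads per library, which limits their precision.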

Other observations

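Ratios between pericentral genes within a mouse were computed for all 45 pairs after their levels had been seen. Such a ratio does not depend on library scaling. The groups did not overlap for 3 ratios. The log2 ratio of Glul to Oat was -2.41 ± 0.273 in AdGFP and -1.69 ± 0.293 in AdNAMPT, that of Glul to Cyp2e1 was -2.36 ± 0.0550 and -1.98 ± 0.205, and that of Oat to Slc1a2 was 3.89 ± 0.0577 and 3.45 ± 0.384 (SD, n = 4 each). Each reached an exact permutation p of 0.0286 (two-sided), the smallest that 4 against 4 mice allow. Any ratio without overlap has this p. After adjustment 0 of the 45 passed (0.429 for each of the 3). Each of the 3 contains Glul or Oat, so they are not independent. The share of ratios without overlap over pairs of all tested genes was not computed.

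The tested genes whose log2 CPM followed Glul most closely over the 8 mice were Slc26a10 (r = 0.966), Maml3 (r = 0.966) and Ap2a2 (r = 0.965). For Cyp2e1 they were Mindy3 (r = 0.981), Got1 (r = 0.967) and Polr3e (r = 0.958), and for Axin2 they were Sfi1 (r = 0.956), Cebpa (r = 0.946) and Mab21l2 (r = 0.922). These are the highest values among 12270 tested genes, given as a description, and Slc26a10, Maml3 and Mab21l2 were below 3 CPM on average in both groups.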
